A study of Schmidtea mediterranea with 48 samples.

Results

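The set described here holds 151 transcript features of the planarian Schmidtea mediterranea that stood at least 2-fold lower after 12 days of zfp1 RNAi and stayed above set limits of loss after pax5 and sox8 RNAi. They were taken from the 19094 features with a mean of at least 1 RPKM over 48 libraries, out of 28413 in all. RPKM scales the reads of a feature by its length and by the total reads of the library. Members were chosen by measured ratios: a feature entered when its log2 ratio of zfp1 to control on day 12 was at most -1, its pax5 ratio on day 18 was over -1, and its sox8 ratio averaged over the 3 days was over -0.5. Each ratio was taken between group means after 0.5 RPKM was added. Of the 218 features that met the zfp1 limit, 151 met the other limits as well, so all 151 passed the filter on low values by the rule itself.

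RNAi against zfp1, pax5 or sox8 was compared with RNAi against unc22, a nematode muscle gene that is not a planarian target and served as the control. All worms, the controls included, belonged to the clonal line CIW4 and ate bacteria expressing double-stranded RNA mixed with liver paste, in 3 feedings spaced 3 days apart. Whole worms were sampled on days 6, 12 and 18, with 4 libraries of polyadenylated RNA for each RNAi and day. Whether a library came from 1 worm or a pool is not stated in the sources used here, so p-values measure the spread between libraries, which may be technical in part.

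Planarian stem cells, the neoblasts, are the dividing cells of the adult worm and replace its differentiated tissues. One class of neoblasts makes the epidermis through a series of postmitotic progenitors that move outward and switch their gene expression on the way. The zinc finger gene zfp1 is known for its need in that class of neoblasts and in its epidermal progeny. Pax genes encode paired-box transcription factors and sox8 belongs to the SoxE family of transcription factors, both families being known for roles in cell fate across animals.

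The table does not pair its SMED30 identifiers with gene names, so members are given by identifier, no function is assigned to them, and the knockdown of zfp1, pax5 and sox8 was not checked on the targets. Without names, cell type markers could not be looked up either. The whole reads behind the RPKM values summed to between 6894458 and 65663283 per library, with a median of 23162610. The pax5 day 6 libraries were the deepest group (23372153 to 65663283 reads). In RNA of whole worms, fewer cells of a type and less RNA per cell cannot be told apart.

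Together the 151 features made up about 2% of the table in control worms and were reduced several-fold by zfp1 RNAi after day 6. Their share of summed RPKM in unc22 libraries was 2.10 ± 0.0737% on day 6, 1.88 ± 0.0289% on day 12 and 1.69 ± 0.0542% on day 18 (SD, n = 4). In zfp1 libraries it was 1.85 ± 0.0516%, 0.632 ± 0.0974% and 0.374 ± 0.0524% (SD, n = 4) on the same days. On day 12 the zfp1 libraries held 0.578, 0.559, 0.617 and 0.773%, replicate 4 being the highest, and that contrast chose the members. On day 18, which did not choose the members in zfp1 libraries, they held 0.411, 0.359, 0.419 and 0.306%, and no zfp1 library reached the lowest unc22 library at 1.63%. After pax5 RNAi the share was 1.95 ± 0.0518%, 1.56 ± 0.0638% and 1.26 ± 0.0156%, and after sox8 RNAi 1.94 ± 0.0866%, 1.56 ± 0.0486% and 1.26 ± 0.0109% (SD, n = 4). The sums were thus below the controls in pax5 and sox8 libraries too, without overlap on days 12 and 18, although all sox8 libraries and the pax5 libraries of day 18 took part in the choice. These sums lean on few features: SMED30005838 alone gave 14.2% of them in unc22 libraries.

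**Figure D1:**
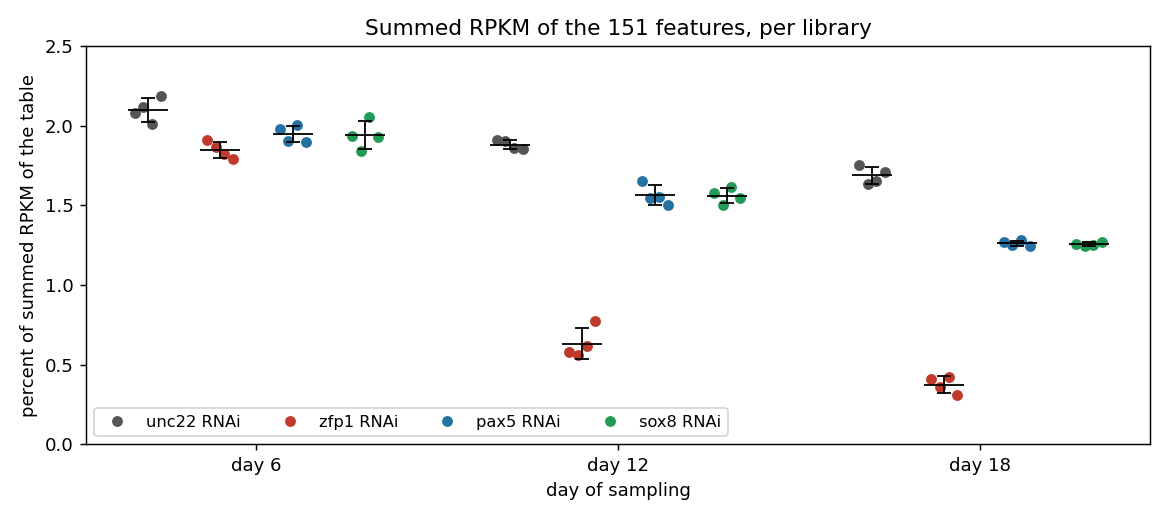
Share of the summed RPKM of the table (percent, vertical axis) held by the 151 features in each library, by day and RNAi; points are libraries, bars the mean ± SD (n = 4). The zfp1 libraries of days 12 and 18 sit at or below 0.773%, while the unc22 libraries of those days sit at 1.63% or above.

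Levels of single members ran from 0.902 to 2129 RPKM in control worms (mean of the 3 days, median 15.8), against a median of 9.02 RPKM over all features of the same minimum mean. Of the members, 24 stood at 100 RPKM or more, 63 between 10 and 100, and 64 below 10. The most abundant was SMED30005838, with means of 2391, 2038 and 1958 RPKM in unc22 libraries on days 6, 12 and 18. In zfp1 libraries its means were 1950, 536 and 229.7 RPKM. Its pax5 means were 1816, 1438 and 1044 RPKM, and its sox8 means 1958, 1493 and 1246, so the mean was below the control in every knockdown on each day. SMED30030996 came next, at 1693, 1400 and 1153 RPKM in unc22 libraries and 1519, 502 and 193 in zfp1 libraries on the 3 days. Its level in pax5 libraries went from 1540 to 695 RPKM between days 6 and 18.

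The values that chose the members are given as a description. On day 12 the log2 ratio of zfp1 to control ran from -3.76 to -1.01, with a median of -1.39, and 14 members stood at or below -2. The pax5 ratio of day 18 ran from -0.998, in SMED30011140, to 1.24 (median -0.32) and 113 of 151 were below 0. The averaged sox8 ratio ran from -0.48 to 1.04 (median -0.16). Median sox8 ratios were -0.01, -0.15 and -0.32 on days 6, 12 and 18. The medians over all features of the same minimum mean lay between -0.01 and 0.03 in these contrasts.

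SMED30032293 had the lowest zfp1 ratio of day 12. Its unc22 libraries held 164, 171, 172 and 153 RPKM and its zfp1 libraries 8.37, 8.59, 12.8 and 17.0, while its pax5 libraries of that day held 160, 155, 157 and 147. The day 12 libraries of sox8 held 169, 151, 172 and 155 RPKM. Both pax5 and sox8 libraries overlapped the control, the lowest of each (147 and 151 RPKM) being below the lowest control library at 153. SMED30012332 was second, at 38.0, 36.3, 39.2 and 34.9 RPKM in unc22 and 3.35, 2.33, 3.97 and 3.98 in zfp1 libraries. Membership near the limits was a matter of small differences. SMED30027343 and SMED30015672 were just inside the zfp1 limit, both at -1.01, and SMED30017561 and SMED30008364 just outside, both at -0.99. At the pax5 limit SMED30011140 (-0.998) and SMED30009801 (-0.98) were inside, and SMED30005357 (-1.02) and SMED30020794 (-1.05) outside. At the sox8 limit SMED30026307 and SMED30008947 (both -0.48) were inside, and SMED30033892 and SMED30020964 (both -0.54) outside. In all, 18 members lay within 0.1 of the zfp1 limit.

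**Figure D2:**
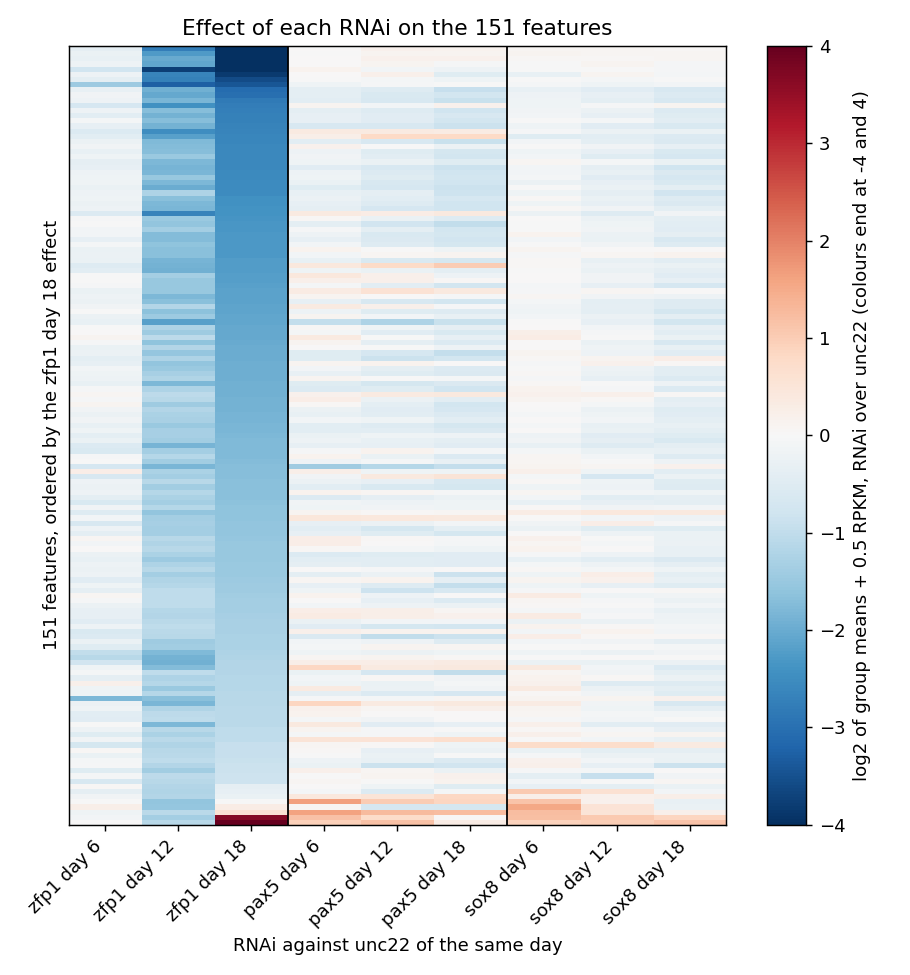
Effect of each RNAi on each of the 151 features (rows, ordered by the zfp1 day 18 effect) in 9 comparisons with unc22 of the same day (columns); colour is the log2 ratio of group means after 0.5 RPKM was added. The day 12 column of zfp1, the day 18 column of pax5 and the 3 sox8 columns chose the rows; in the zfp1 day 18 column 135 rows are at or below -1 and 2 rows are at or above 1.

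On day 6, before the day that chose the members, zfp1 RNAi had lowered a minority of them. Changes from here on are on the scale of log2(RPKM + 0.5) from limma, with its standard error (SE), and a feature is called, or said to have risen or fallen, at an adjusted p under 0.05. Of the 151 members, 24 (15.9%) fell and 0 rose, and 127 were not called. Over all 22667 features tested, 0.631% were called lower and 0.728% higher on that day, 1.36% in all. The median change of the members was -0.23, against 0.003 over all features. The 4 zfp1 libraries lay below all 4 unc22 libraries in 46 members, against 2.35% of all features, and above them in 0 members (3.05%). The count of falls depended on the fit: it was 13 when only zfp1 and unc22 of day 6 were fitted. It was 43 with voom on the recovered reads, and 15 without unc22 day 6 replicate 4. Over all features the falls moved the same way, from 143 to 53, 244 and 93 in these fits.

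SMED30023708 fell most on day 6 and was no lower on the later days. Its unc22 libraries of day 6 held 16.9, 16.2, 18.6 and 17.1 RPKM and its zfp1 libraries 5.22, 4.42, 3.85 and 4.76, a change of -1.81 (SE 0.07, adjusted p = 6.70e-23). On day 12 the zfp1 libraries held 5.36, 5.16, 4.81 and 4.21 RPKM and on day 18 6.96, 5.57, 6.38 and 6.92. The zfp1 and unc22 libraries were apart on each of the 3 days, and the level in zfp1 libraries was highest on day 18. In pax5 libraries SMED30023708 stayed at 16.5 ± 0.663, 15.7 ± 1.16 and 15.4 ± 0.966 RPKM on days 6, 12 and 18 (SD, n = 4), close to its controls.

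SMED30012332 followed, with unc22 libraries at 41.1, 38.4, 40.8 and 42.1 RPKM and zfp1 libraries at 16.2, 13.5, 14.6 and 13.4 on day 6, a change of -1.47 (SE 0.10, adjusted p = 3.94e-14). In contrast to SMED30023708 it went on falling, to 2.56 ± 0.464 RPKM in zfp1 libraries on day 18 against 32.0 ± 1.82 in unc22 (SD, n = 4). The 24 members that fell on day 6 all fell on day 18 as well, where 143 of all 151 members (94.7%) fell. The median ratios of these 24 on days 6, 12 and 18 were -0.58, -1.71 and -1.48, whereas those of all 151 members were -0.22, -1.39 and -1.80. The other 119 members lower on day 18 were not called on day 6, although 138 of all 151 members had a day 6 ratio below 0.

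By day 18 nearly the whole set was lower after zfp1 RNAi. Falls were called in 143 members (94.7%) and rises in 2, while 6 were not called. Over all features tested 14.5% were called lower and 9.54% higher, and under quantile normalization 2857 were lower and 3841 higher, while the members still gave 143 and 2. The median change of the members was -1.82, against 0.005 over all features. Of the 143 falls 135 were of at least 2-fold, and 10 members had a ratio at or below -3. The 4 zfp1 libraries lay below all 4 unc22 libraries in 144 members (14.5% of all features) and above them in 2 (10.2%). In 115 of the 151 members the ratio was lower on day 18 than on day 12, although the day 12 ratio chose them. In 20 members at least 1 zfp1 day 18 library had no more than 3 reads, so the size of those falls is limited by depth.

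SMED30023017 and SMED30032042 had the deepest falls. The day 18 libraries of SMED30023017 held 198, 172, 202 and 210 RPKM in unc22 and 9.77, 1.78, 1.55 and 4.96 in zfp1. Its change was -5.60 (SE 0.25, adjusted p = 3.47e-21). Its level in zfp1 libraries went from 141 ± 23.3 RPKM on day 6 through 29.6 ± 8.59 on day 12 to 4.51 ± 3.83 on day 18 (SD, n = 4). For SMED30032042 the unc22 libraries held 594, 491, 554 and 593 RPKM and the zfp1 libraries 32.7, 5.25, 8.11 and 23.1, a change of -5.31 (SE 0.27, adjusted p = 1.24e-19). In both features the zfp1 libraries differed from each other by several-fold, and all of them were below every control library. After the other knockdowns the level stood near the control: on day 18 the means of SMED30032042 were 607 RPKM in pax5 and 594 in sox8 libraries against 558 in unc22.

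The zfp1 day 18 falls of different depth were set beside the pax5 calls of day 12, when 4.20% of all features were called lower and 2.06% higher. Of the 10 members at or below -3 on zfp1 day 18, 2 were called lower and 0 higher in pax5 on day 12, a comparison with other libraries on both sides. Their pax5 day 12 changes ran from -0.62 to 0.23. Among the 48 members between -3 and -2, 27 were called lower and 3 higher in pax5 on day 12, and among the 93 above -2 these numbers were 27 and 6. The median pax5 day 12 ratios of these classes were 0.03, -0.43 and -0.19. These classes were formed after the values were seen, and the difference between them was not tested.

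SMED30004187 and SMED30029247 moved the other way and rose on day 18. The zfp1 libraries of SMED30004187 held 0.305, 0.575, 0.324 and 0.226 RPKM on day 12 and 85.7, 111, 274 and 52.0 on day 18. In unc22 libraries it held 2.47, 1.06, 1.89 and 0 RPKM on day 12 and 5.20, 6.47, 7.62 and 1.57 on day 18. The change on day 18 was 4.42 (SE 0.56, adjusted p = 2.28e-08), and the lowest zfp1 library was above the highest control. SMED30029247 went from 0.902, 1.02, 2.24 and 1.23 RPKM on day 12 to 177, 227, 415 and 125 on day 18 in zfp1 libraries. Its unc22 libraries of day 18 held 18.0, 23.5, 21.4 and 8.61 RPKM, and it rose by 3.63 (SE 0.53, adjusted p = 5.67e-07). In both features zfp1 replicate 3 was the highest and replicate 4 the lowest on day 18, so the size of the rise differed between libraries by several-fold. The day 12 ratio that placed SMED30004187 in the set rested on 1 to 5 reads per zfp1 library and 0 to 17 per unc22 library. SMED30029247 had 3 to 11 and 12 to 63 reads there.

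**Figure D3:**
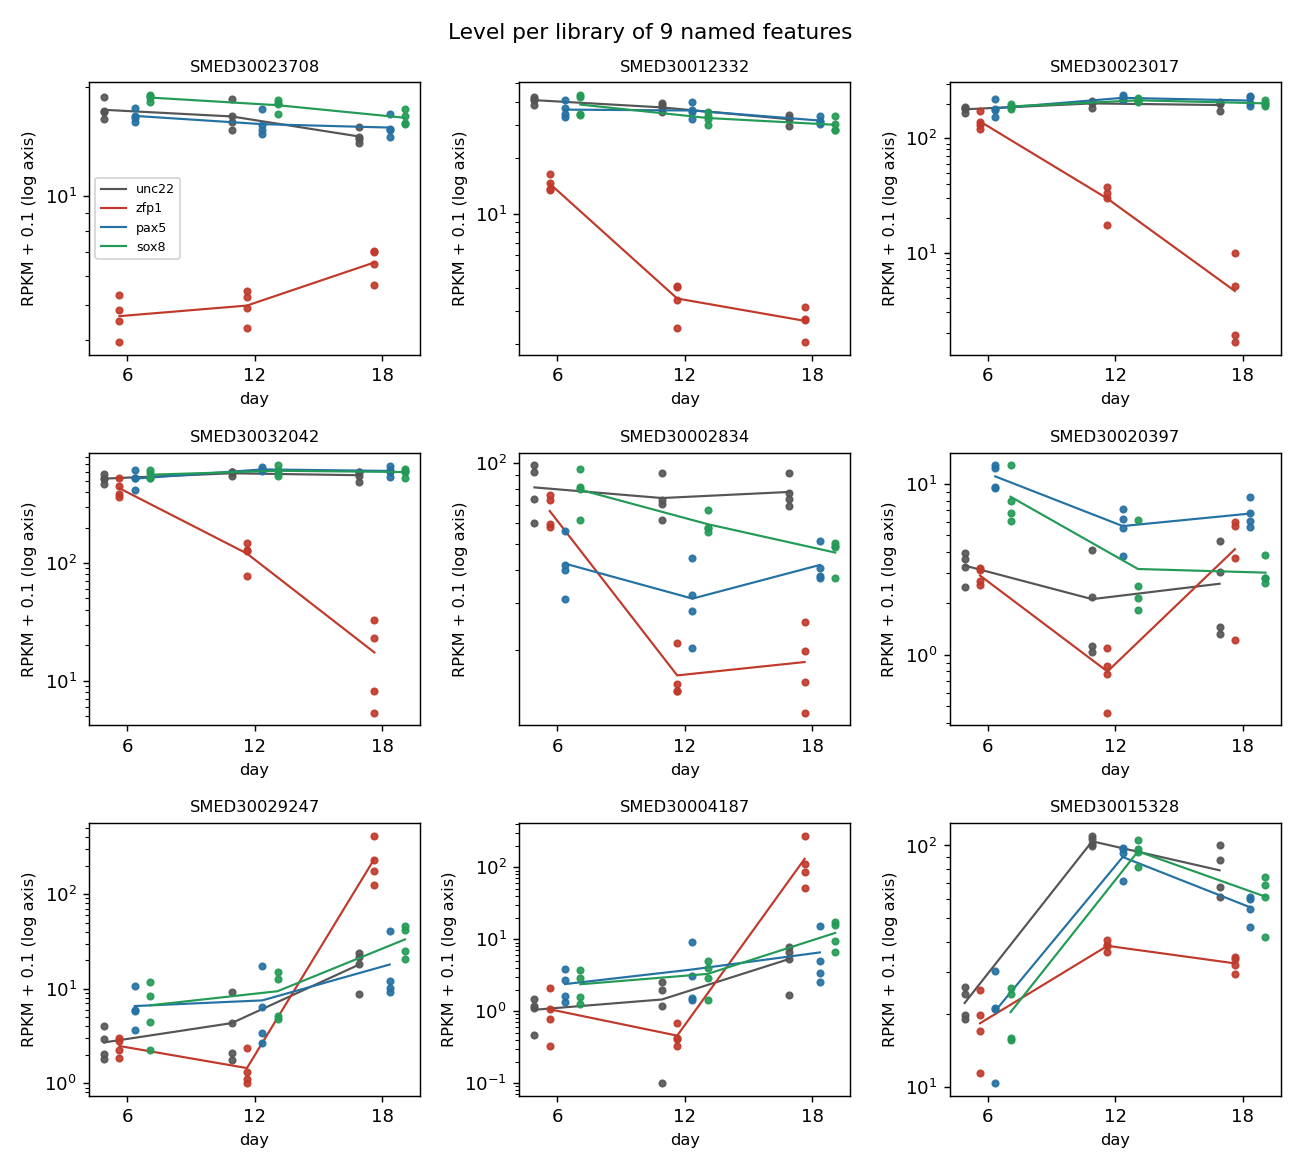
RPKM + 0.1 (vertical log axes) of 9 named members in each library on days 6, 12 and 18; points are libraries and lines join group means, with unc22 grey, zfp1 red, pax5 blue and sox8 green. SMED30023017 and SMED30032042 go down on each later day in zfp1 libraries, SMED30023708 is already low on day 6, and SMED30029247 and SMED30004187 are low on day 12 and high on day 18.

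With the 6 members not called, 8 members were not lower on zfp1 day 18. Their median zfp1 ratios were -0.07, -1.20 and 0.14 on days 6, 12 and 18. Their median pax5 ratios were 0.68, 0.63 and 0.14, and their median sox8 ratios 1.10, 0.53 and 0.04. Their levels in control worms ran from 0.902 to 22.8 RPKM (median 5.14), against a median of 15.8 RPKM over all members. In control worms 0 of the 8 were called lower and 4 higher on day 18 against day 6, against 17.0% and 21.3% of all features. Here too the class was formed after the values were seen.

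A direct comparison of the zfp1 effect between day 18 and day 6 tested how far the response had moved after its first days. In 135 members (89.4%) the later effect was the more negative, in 3 the more positive, and 13 were not called. Of all features 10.4% were more negative and 4.66% more positive, and under quantile normalization 2094 and 2025 features were, while the members still gave 135 and 3. The median difference was -1.62 in the members and -0.003 over all features. SMED30023017 (-5.24, SE 0.35, adjusted p = 5.58e-15) and SMED30032042 (-5.02, SE 0.38, adjusted p = 9.49e-14) led. SMED30004187 moved up by 4.48 (SE 0.79, adjusted p = 2.82e-05) and SMED30029247 by 3.71 (SE 0.75, adjusted p = 0.000240). For SMED30004187 the call was lost with voom on the recovered reads, at an adjusted p of 0.122, where all alternatives ranged from 4.39e-06 to 0.122. The third member with a more positive effect was SMED30023708, named here because the count is small, whose fall was deepest on day 6.

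After pax5 RNAi members changed in both directions on day 6, and on day 12 falls outnumbered rises. On day 6, 24 members (15.9%) fell and 15 (9.93%) rose, and 112 were not called. Of all features 2.68% were called lower and 2.44% higher on that day, 5.12% in all. On day 12, 56 members (37.1%) fell and 9 (5.96%) rose, against 4.20% and 2.06% of all features and 6.26% in all. On day 6 the pax5 libraries lay below all unc22 libraries in 41 members (5.14% of all features) and above them in 20 (6.20%), and on day 12 in 66 (7.76%) and 16 (8.0%). The unc22 day 12 libraries also enter the zfp1 ratio that chose the members, so a control mean that is high by chance would lower both effects. Median changes were -0.09 on day 6 and -0.23 on day 12, against 0.010 and -0.002 over all features, and 106 of the 151 day 12 ratios were below 0. Falls of at least 2-fold were called in 1 member on day 6 and 2 on day 12. The rule left out features with a pax5 day 18 ratio at or below -1. The scarcity of large pax5 falls is thus not independent of the choice. In the 37 features left out for pax5 alone the median pax5 ratios were -0.92 on day 6 and -1.19 on day 12. Neither day gave a call in 76 of the 151 members. With voom the day 6 calls were 45 lower and 18 higher. Over all 22667 features voom gave 865 lower and 862 higher, against 607 and 554 in the main fit.

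The pax5 calls of the separate days overlapped in direction. Of the 24 members that fell on day 6, 23 fell on day 12, and of the 15 that rose on day 6, 6 rose on day 12. No member fell on one day and rose on the other. The overlap between days over all features was not counted, so it is not read as a result about the members. The 23 members lower on both days had median pax5 ratios of -0.42 and -0.64 and a median control level of 46.0 RPKM. The 76 members without a call had ratios of 0.02 and -0.06 and a control level of 8.04 RPKM, at which small changes are harder to call. By control level, 12 of 24 members at 100 RPKM or more and 32 of 63 between 10 and 100 fell on pax5 day 12. Below 10 RPKM 12 of 64 fell. The share of all features called at each level was not counted, so this split is not read as a result about the members.

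SMED30035421 and SMED30002834 were the members lowered most by pax5 RNAi. SMED30035421 held 2.17, 2.38, 3.52 and 2.73 RPKM in unc22 and 0.410, 0.677, 0.872 and 0.799 in pax5 libraries on day 6. Its change was -1.43 (SE 0.15, adjusted p = 6.30e-10) on day 6 and -1.12 (SE 0.15, adjusted p = 1.26e-07) on day 12, with no overlap between the groups on either day. SMED30002834 changed by -0.94 (SE 0.20, adjusted p = 0.00117) on day 6 and -1.28 (SE 0.20, adjusted p = 5.75e-06) on day 12. Its day 12 libraries held 91.5, 70.5, 72.6 and 61.3 RPKM in unc22, 44.0, 32.0, 20.2 and 27.9 in pax5, and 13.9, 13.9, 14.8 and 21.2 in zfp1. It was thus lower after both knockdowns on that day, with zfp1 replicates 1 to 3 below all pax5 libraries and zfp1 replicate 4 above only pax5 replicate 3.

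SMED30020397, SMED30032218 and SMED30026307 rose after pax5 RNAi. SMED30020397 held 2.41, 3.53, 3.82 and 3.15 RPKM in unc22 and 9.49, 12.8, 9.36 and 12.3 in pax5 libraries on day 6. It rose by 1.62 (SE 0.34, adjusted p = 0.00112) on day 6 and by 1.40 (SE 0.34, adjusted p = 0.00500) on day 12, when its controls were uneven (4.02, 1.03, 2.09 and 0.938 RPKM). SMED30032218 rose by 1.61 on day 6 (SE 0.36, adjusted p = 0.00236), its pax5 libraries averaging 15.3 ± 5.02 RPKM against 4.59 ± 1.24 in the controls (SD, n = 4). SMED30026307 rose by 0.85 on day 12 (SE 0.19, adjusted p = 0.00154). Its day 12 libraries held 2.25, 4.56, 2.37 and 3.88 RPKM in unc22, 6.15, 6.05, 6.13 and 5.84 in pax5, and 0.262, 0.494, 0.278 and 0.291 in zfp1. The 3 groups did not overlap in SMED30026307, with pax5 above and zfp1 below the control. In the first 2 the mean of the sox8 libraries was above the control on day 6 as well. On day 6 the sox8 ratios were 1.24 in SMED30020397 and 1.15 in SMED30032218, and -0.47 in SMED30026307. These sox8 ratios took part in the choice and were not tested.

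**Figure D4:**
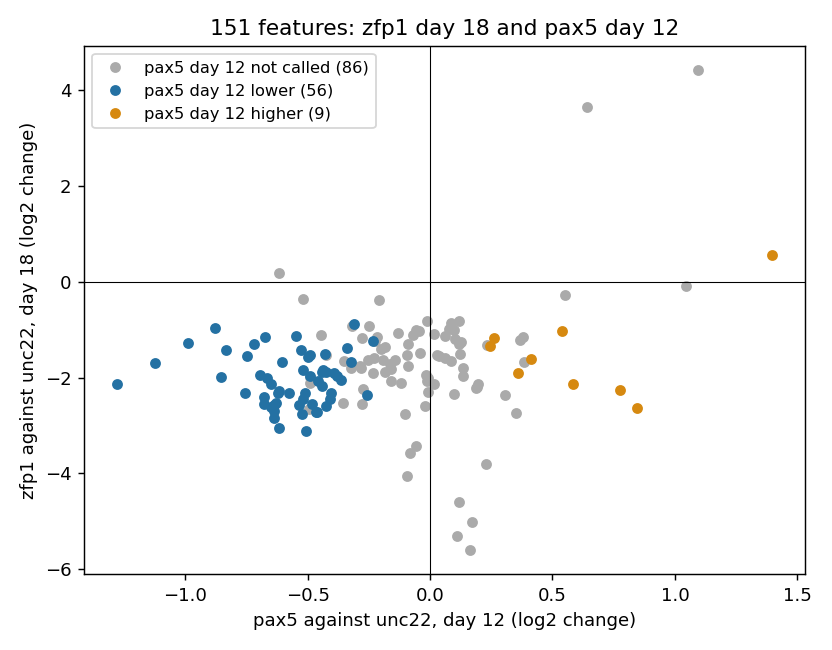
Log2 change of the 151 features after zfp1 RNAi on day 18 (vertical axis) against that after pax5 RNAi on day 12 (horizontal axis), both from limma and with separate controls; colour gives the pax5 call. The 56 features called lower in pax5 lie left of 0, and the deepest zfp1 falls, down to -5.60, lie near 0 on the pax5 axis.

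Whether the pax5 effect grew from day 6 to day 12 was tested on the difference itself. It was more negative on day 12 in 3 members (1.99%) and more positive in 0, against 0.679% and 0.0706% of all features, where quantile normalization gave 160 more negative and 45 more positive. The median difference was -0.14. SMED30022601 differed by -0.67 (SE 0.14, adjusted p = 0.00534): its pax5 level went from 6.96 ± 0.545 to 5.03 ± 0.0880 RPKM while unc22 went from 7.81 ± 0.364 to 9.38 ± 0.994 (SD, n = 4). SMED30011700 differed by -0.51 (SE 0.12, adjusted p = 0.0190), and its call was lost in 6 of 24 alternatives, with adjusted p values from 0.00258 to 0.0875. The count was 5 with quantile normalization, 5 when the other groups were left out of the fit, and 6 with voom. It was 1 when pax5 day 6 replicate 1, pax5 day 12 replicate 3 or unc22 day 6 replicate 1 was left out singly. Leaving out unc22 day 12 replicate 1 or 4 singly also gave 1. Over all features the more negative calls numbered 164 without the other groups, 179 with voom and 129 to 160 in those leave-out fits.

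On day 6 zfp1 and pax5 were also compared with each other, in libraries that took no part in choosing the members. On later days the same knockdowns did, as the rule required a zfp1 fall on day 12 and limited the pax5 fall on day 18. More members lower in zfp1 than in pax5 libraries is thus the direction that the rule favours. Levels were lower in zfp1 than in pax5 libraries in 46 members (30.5%) and higher in 5 (3.31%), against 4.18% and 3.55% of all features, 7.72% in all. The median difference was -0.13, against -0.001 over all features. SMED30020397 differed by -1.78 (SE 0.34, adjusted p = 0.000236) and SMED30023708 by -1.76 (SE 0.07, adjusted p = 1.80e-23). The former stood at 2.81 ± 0.321 RPKM in zfp1 libraries, near its control, and was high in pax5, whereas the latter was low in zfp1 libraries. In the other direction SMED30035421 differed by 0.74 (SE 0.15, adjusted p = 0.000430), at 1.49 ± 0.418 RPKM in zfp1 and 0.690 ± 0.203 in pax5 libraries (SD, n = 4). SMED30002834 differed by 0.67 (SE 0.20, adjusted p = 0.0264), and this call was lost without any single one of pax5 replicates 1, 3 and 4 or zfp1 replicates 1 and 4 (adjusted p = 0.0527 to 0.131; range over all alternatives 0.00403 to 0.131).

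In control worms the members drifted with time, more often down than up. Between day 6 and day 12, 23 members (15.2%) fell and 11 (7.28%) rose, against 7.33% and 10.6% of all features. Between day 6 and day 18, 52 (34.4%) fell and 18 (11.9%) rose, against 17.0% and 21.3%. The median change to day 18 was -0.18 in the members and 0.003 over all features. Of the 23 that had fallen by day 12, 20 were also lower on day 18, both comparisons sharing the day 6 libraries. That overlap was not counted over all features. The control libraries entered the ratios that chose the members, so these counts are not independent of the choice. The day 12 counts were 44 lower and 14 higher when the other groups were left out of the fit. They were 12 and 9 without unc22 day 6 replicate 4. Over all features these fits gave 1912 lower and 2431 higher, and 1134 and 1917, against 1661 and 2413 in the main fit.

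SMED30015328 stood out among the rises in the controls. Its unc22 libraries held 19.7, 25.8, 24.1 and 18.9 RPKM on day 6, 101, 106, 110 and 99.1 on day 12, and 87.0, 100, 61.1 and 67.2 on day 18. The rise to day 12 was 2.22 (SE 0.21, adjusted p = 5.73e-10), with no overlap between these days. In zfp1 libraries it went from 18.2 ± 5.73 RPKM on day 6 to 38.3 ± 1.83 on day 12 (SD, n = 4), so the level at the day that chose it was above its own day 6 level. The day 6 level of SMED30016862 was 1.98 ± 0.488 RPKM and its day 12 level 4.26 ± 0.798 (SD, n = 4), a rise of 0.95 (SE 0.20, adjusted p = 0.000458). SMED30029247 and SMED30004187, the members that rose in zfp1 libraries on day 18, also rose by 2.53 and 1.87 in control worms from day 6 to day 18 (SE 0.53 and 0.56, adjusted p = 0.000194 and 0.00702). For SMED30004187 voom did not call this rise, at an adjusted p of 0.177, where all alternatives ranged from 0.00188 to 0.177.

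Falls in the controls were smaller. SMED30016250 changed by -0.95 (SE 0.25, adjusted p = 0.00636) and SMED30014220 by -0.56 (SE 0.14, adjusted p = 0.00274) from day 6 to day 12. The level of SMED30014220 went from 54.6 ± 6.01 to 36.9 ± 3.39 RPKM (SD, n = 4). Adding 0.1 RPKM instead of 0.5 ended the call of SMED30016250, at an adjusted p of 0.0657, where all alternatives ranged from 0.00218 to 0.0657. To day 18, SMED30025929 changed by -1.02 (SE 0.19, adjusted p = 4.13e-05), its unc22 libraries going from 4.49, 5.24, 4.75 and 4.69 to 1.99, 2.21, 2.54 and 1.77 RPKM. The day 6 level of SMED30001882 was 2.56 ± 0.324 RPKM and its day 18 level 1.19 ± 0.227 (SD, n = 4), a change of -0.86 (SE 0.21, adjusted p = 0.00132).

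The control trend was read by pax5 call. Of the 56 members that fell in pax5 on day 12, 26 fell and 0 rose in control worms from day 6 to day 18. Of the 9 that rose in pax5, 1 fell and 4 rose in the controls, and of the 86 not called 25 fell and 14 rose. The 2 comparisons share no library, and over all features 17.0% fell and 21.3% rose in the controls. Median control levels were 31.6, 8.82 and 25.5 RPKM in the members lower, not called and higher in pax5. By level, 10 of 24 members at 100 RPKM or more and 28 of 63 between 10 and 100 fell in the controls. Below 10 RPKM 14 of 64 fell, and rises numbered 2, 6 and 10 at these levels. The share of all features called at each level was not counted here either, so this split is not read as a result about the members. Whether level accounts for the difference between the classes was not tested. Median day 18 ratios of sox8, which entered the choice, were -0.47, -0.25 and -0.23 in these classes of 56, 86 and 9 members.

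Level and length of the members were described beside those of other features. The median length recovered from the RPKM values was 742 bases, from 207 to 2921, against 1217 over all features of the same minimum mean. The other features that met the zfp1 day 12 limit were also short, with medians of 628 bases in those left out for pax5 alone, 713 for sox8 alone and 575 for both. The 24 members at 100 RPKM or more had a median length of 450.5 bases and a median zfp1 day 18 ratio of -2.53. For the 64 members below 10 RPKM these were 853 bases and -1.48, on a scale where the added 0.5 RPKM shrinks the ratios of low features. Lengths are those of the deposited features, whose transcript models are not given in the sources used here.

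The other 67 features that met the zfp1 day 12 limit were set beside the members. Of these, 37 were left out for pax5 alone, 12 for sox8 alone and 18 for both. The median zfp1 day 18 ratios were -1.80 in the members and -2.05, -2.45 and -2.80 in these groups, in that order. On day 6 they were -0.22, -0.18, -0.79 and -0.48. Median levels in unc22 on day 18 were 14.5 RPKM in the members and 37.9, 7.15 and 49.5 in the other groups. From day 6 to day 18 the median control ratio was -0.17 in the members and -0.19, -0.73 and -0.37 in the others. The groups differ by the rule in pax5 and sox8, these medians were not tested, and nothing is called particular to the members from them.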

How the data were processed

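The authors deposited RPKM values (reads per kilobase of feature, scaled to each library) for 28413 features in 48 libraries; CASAVA 1.8.2, Bowtie and edgeR are named without roles in the submitters' processing notes. The reference, filters and treatment of reads matching several features are not given in the sources used here, so features sharing sequence are uncertain. Whole reads were recovered for 28413 features from exact ratios of low values (tolerance 0.0001), and the implied lengths were whole numbers (tolerance 0.001) in 28413. Features with a mean of at least 0.5 RPKM (22667) were tested on log2(RPKM + 0.5) with limma 3.58.1 in R 4.3.3 (trend and robust options), 1 mean for each of 12 groups, two-sided, with Benjamini-Hochberg adjustment over all features tested. The code was tested on simulated data. Python 3.11.15, pandas 2.3.3 and matplotlib 3.10.9 did the rest.

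The members, comparisons and alternatives were chosen with earlier results of these data known. Members were named by a rule: per comparison, the 2 called members with the largest fall and the 2 with the largest rise, besides those lowest on zfp1 day 12, those at the limits and the most abundant. No list of named genes could be used without gene names. The labels give no batch. Alternatives were other pseudocounts (0.1 and 1), filters, quantile normalization, fits of only the groups compared, a replicate block, voom on recovered reads, and leaving out single libraries.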

Additional observations from a re-analysis of the deposited data

Results flagged for a closer look

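The zfp1 effect differed between day 18 and day 6 by the test of the difference itself in 138 members, more negative in 135 and more positive in 3. Named members under that test were SMED30023017 (-5.24), SMED30032042 (-5.02), SMED30004187 (4.48) and SMED30029247 (3.71), on the log2 scale. The pax5 effect differed between day 12 and day 6 in 3 members, all more negative on day 12, with SMED30022601 at -0.67 and SMED30011700 at -0.51.

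Stray libraries were looked for in 72 checks, each of 1 named member or of the summed RPKM of the members within 1 group. A library stood away from the other 3 of its group in 2 of these checks, where chance flags about 1 in 20. SMED30032218 held 6.43 RPKM in unc22 day 6 replicate 3, the highest of its group. The summed RPKM of the 151 members was 17006 in pax5 day 6 replicate 3, against 15134, 15146 and 15185 in replicates 1, 2 and 4.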

How the results depend on the processing

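Of 32 named results, 27 were called under every alternative tried, 5 lost the call in at least 1 and 0 changed direction. The zfp1 day 6 count of 24 members was 13 when the other groups were left out of the fit and 43 with voom on recovered reads. The pax5 day 6 count of 39 was 63 with voom. Over all features, 143 lower and 165 higher on zfp1 day 6 became 53 and 39, and 244 and 246 with voom. On pax5 day 6, 607 lower and 554 higher became 865 and 862 with voom. The count of 3 for the pax5 effect between days 12 and 6 was 5 with quantile normalization, 5 without the other groups, and 6 with voom. Over all features 154 more negative calls became 160, 164 and 179, and 16 more positive ones became 45, 28 and 23. The unc22 count of 34 between days 12 and 6 was 58 without the other groups. Over all features 1661 falls became 1912 and 2413 rises became 2431. The cause of these changes was not tested, except that the smaller fits use fewer libraries. Leaving out 1 library at a time gave 15 to 29 for zfp1 day 6, 145 to 146 for zfp1 day 18, 27 to 35 for pax5 day 6, 57 to 68 for pax5 day 12, 135 to 139 for the zfp1 difference, 1 to 3 for the pax5 difference, 42 to 52 for zfp1 against pax5, 21 to 33 for unc22 day 12 and 50 to 67 for unc22 day 18. With a minimum mean of 2 RPKM, 21 members dropped out and 130 were tested.

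The labels do not say whether replicate numbers mark a batch. Deviations of same-numbered libraries correlated at -0.419 to 0.217, over 0.1 in 2 of 4 pairs for pax5 day 6, so the numbers were not taken to pair the libraries. With the replicate block the counts were 21, 145, 40, 64, 138, 2, 53, 35 and 69 for zfp1 days 6 and 18, pax5 days 6 and 12, the zfp1 and pax5 differences, zfp1 against pax5, and unc22 days 12 and 18, so no count moved by over 1.5 times. Some members under 10 RPKM had few reads after zfp1 RNAi, which limits the size of those falls. Others had more: SMED30000850, at 9.67 RPKM in control worms, had 65 to 223 reads per zfp1 day 18 library.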

Other observations

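Several members varied in the same libraries of the control group. In unc22 day 18, replicate 4 was the lowest of the 4 libraries for SMED30004187 (1.57 RPKM), SMED30029247 (8.61), SMED30032218 (4.08), SMED30002813 (8.88) and SMED30028779 (10.8), and replicate 2 was the highest for SMED30029247 (23.5), SMED30032218 (15.3), SMED30002813 (22.6) and SMED30028779 (30.1). In unc22 day 12, replicate 1 was the highest for all 5 of them, at 2.47, 9.04, 9.96, 16.5 and 26.4 RPKM in that order. On zfp1 day 18, replicate 4 was the lowest for the same 5 features, at 52.0, 125, 3.41, 7.07 and 9.03 RPKM. These features were picked after their values were seen, all are among the 8 members not lower on zfp1 day 18, and no test was made.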
